A study of Mus musculus with 15 samples.

Results

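Solute carriers are the membrane transporters whose genes are named Slc followed by a family number and a member number. They were chosen here by symbol: 238 genes carried a single symbol of that form, and the 152 whose mean over the 15 arrays was at least 6 on the log2 scale of the deposited values are described, out of 12393 genes measured. The other 86 had a mean under 6. That mean chose the members, so their levels are a description. It was taken over the drug arrays too, so a gene low in 1 group could enter through the groups where it was high: in 141 members every group mean was at least 6, and in 11 at least 1 group mean was under 6. The genes nearest the limit were Slc7a8 and Slc25a14, with means of 6.01 inside it, and Slc10a1 and Slc7a2, with means of 5.94 and 5.92 outside it. The log base and the normalization are not given in the sources used here, and log2 was read from the range of the values, 0 to 14.48. All fold statements rest on that reading.

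The arrays measured mammary epithelial cells purified from digested glands of female C57BL/6 mice. The labels give 2 stages, pregnant at day 21 and virgin at 9 weeks, and 3 intraperitoneal injections. These were PBS as control, 5-azacytidine (AzaC), which blocks the methylation of DNA, and valproic acid (VPA), which inhibits histone deacetylases. Under the pregnant label there were 2 PBS, 3 AzaC and 3 VPA arrays, and under the virgin label 2 PBS, 3 AzaC and 2 VPA arrays. The labels give no genetic change in any group, no dose and no length of treatment. Whether each replicate was a different mouse is not given, so every p-value below measures only the spread between these arrays, which may be technical, and so few arrays limit the precision.

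Solute carriers move sugars, amino acids, ions, metals, nucleosides, vitamins and metabolites across the plasma membrane and the membranes of organelles, most of them by exchange or by cotransport with sodium or protons. In the mammary gland near birth, the secretory epithelium takes up glucose for lactose, amino acids for milk protein and phosphate, zinc, iodide and choline for export, largely through these carriers. Slc2a1 brings glucose into the cell, Slc34a2 and Slc20a1 move phosphate with sodium, and Slc30a2 and Slc30a4 load zinc into secretory vesicles.

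One property of the arrays bears on every comparison of stages. Csn2, the beta-casein of milk, read 13.69 to 13.94 on the 7 arrays labelled virgin and 13.69 to 14.03 on the 8 labelled pregnant, and Wap, Lalba and Csn1s1 were also at 13.41 or more on all 15. Such levels of milk-protein transcripts are a feature of late pregnancy and lactation, so these values go against the virgin label, and groups are called below by their labels. No array stood apart in its level of the members, whose median per array lay between 8.66 and 8.89. The difference between the 3' and 5' control probe sets of Gapdh, a measure of RNA integrity, ranged from -0.17 to 0.85 under the pregnant label, with overlap between the injections, and from -0.06 to 1.23 under the virgin label.

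Under the pregnant label, single carriers of most classes differed between each drug and PBS. Among those that fell with each drug were the glucose carrier Slc2a1, the phosphate carriers Slc34a2 and Slc20a1, the zinc carriers Slc30a4, Slc39a6 and Slc39a11 and the amino acid carrier Slc38a2, and the largest rise was that of the monocarboxylate carrier Slc5a8. With AzaC, 10 of the 152 members rose and 20 fell past an adjusted p of 0.05 (limma, Benjamini-Hochberg over all 12393 genes), or 19.7% of the members. Among all genes tested, 7.57% passed, 3.76% upward and 3.81% downward, and among the 8826 genes with a mean of at least 6 the share was 9.70%. With VPA, 10 members rose and 14 fell, or 15.8%, against 5.98% of all genes and 7.72% of genes with a mean of at least 6. In that comparison 3.64% of all genes rose and 2.34% fell. Of the 141 members with every group mean at 6 or more, 7 rose and 20 fell with AzaC and 8 rose and 14 fell with VPA. The other calls were Slc14a2, Slc41a2 and Slc43a3 with AzaC and Slc41a2 and Slc43a3 with VPA, which entered through groups other than the pregnant PBS arrays, so the values tested also helped to choose them. The median difference over all members was 0 with AzaC and -0.06 with VPA, beside 0.04 and 0.06 over all genes. AzaC and VPA were compared with the same 2 PBS arrays, so their calls are not independent and are given side by side. Groups of this size often do not overlap: the drug arrays lay wholly above or below the PBS arrays for 44.4% of all genes with AzaC and 43.3% with VPA, and for 88 and 89 of the members.

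Both counts rest on these 2 PBS arrays. Without either one, no member passed in either comparison, although every called member kept its direction and had an unadjusted p under 0.05. The adjusted p of the 30 members called with AzaC then ran from 0.0622 to 0.269 without the first PBS array and from 0.0562 to 0.2 without the second. For the 24 called with VPA, the ranges were 0.0727 to 0.23 and 0.0778 to 0.243. The AzaC count was 12 without AzaC replicate 1 and 10 without replicate 3. The VPA count was 9 without VPA replicate 1 or 2, 12 without replicate 3, and 16 without either virgin VPA array. Where 1 PBS array remained, it was assumed to vary like the other groups.

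**Figure D1:**
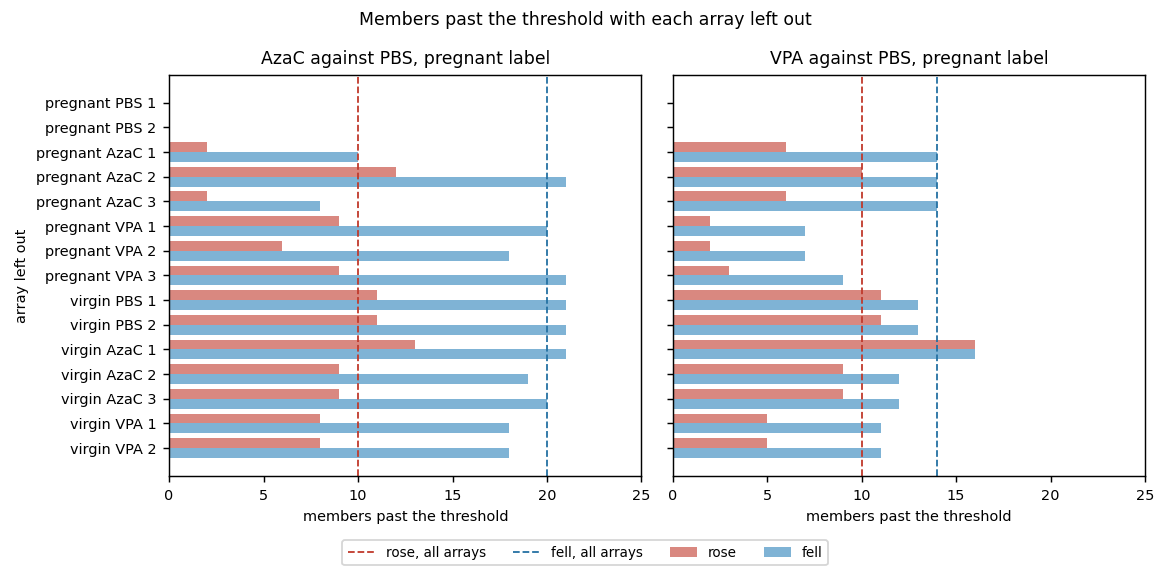
Number of members that rose (red bars) or fell (blue bars) past an adjusted p of 0.05 when each of the 15 arrays was left out, for AzaC (left) and VPA (right) against PBS under the pregnant label. Dashed lines mark the counts with all arrays, 10 rose and 20 fell with AzaC and 10 rose and 14 fell with VPA; both bars are at 0 where a pregnant PBS array was left out.

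Because AzaC acts on the methylation of CG dinucleotides, the CG content of the promoters is shown for 3 members that fell with both drugs and 2 that rose with both. The sequences are the 250 bases before the annotated start of each gene, from RefSeq on build GRCm38.p6, written from 5' to 3' on the strand of the gene, with each CG dinucleotide in capitals. Slc2a1 lies on the plus strand with its window at chr4:119108495-119108744, Slc34a2 on the plus strand at chr5:53049103-53049352, and Slc30a4 on the minus strand at chr2:122702664-122702913. Slc5a8 lies on the plus strand at chr10:88885742-88885991 and Slc13a2 on the minus strand at chr11:78422235-78422484.
Slc2a1: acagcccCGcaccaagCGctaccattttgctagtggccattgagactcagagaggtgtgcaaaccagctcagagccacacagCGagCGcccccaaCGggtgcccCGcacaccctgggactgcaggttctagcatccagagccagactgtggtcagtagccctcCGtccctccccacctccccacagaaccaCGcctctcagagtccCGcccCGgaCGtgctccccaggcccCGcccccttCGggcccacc
Slc34a2: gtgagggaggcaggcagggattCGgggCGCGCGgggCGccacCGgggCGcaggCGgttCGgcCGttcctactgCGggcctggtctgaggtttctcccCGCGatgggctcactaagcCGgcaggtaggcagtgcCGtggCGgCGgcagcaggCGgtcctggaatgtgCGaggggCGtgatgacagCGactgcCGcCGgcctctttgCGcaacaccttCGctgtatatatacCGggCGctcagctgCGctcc
Slc30a4: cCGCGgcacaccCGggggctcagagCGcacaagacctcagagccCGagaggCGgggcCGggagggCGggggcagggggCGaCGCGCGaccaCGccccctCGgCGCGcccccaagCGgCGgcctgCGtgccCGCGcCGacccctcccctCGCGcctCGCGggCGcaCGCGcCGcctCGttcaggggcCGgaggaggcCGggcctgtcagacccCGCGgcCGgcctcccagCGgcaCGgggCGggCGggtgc
Slc5a8: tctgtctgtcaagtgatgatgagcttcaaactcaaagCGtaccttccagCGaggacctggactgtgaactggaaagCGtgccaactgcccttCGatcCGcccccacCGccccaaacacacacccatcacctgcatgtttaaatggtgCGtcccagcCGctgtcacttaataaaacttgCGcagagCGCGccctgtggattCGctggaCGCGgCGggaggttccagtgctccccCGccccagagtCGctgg
Slc13a2: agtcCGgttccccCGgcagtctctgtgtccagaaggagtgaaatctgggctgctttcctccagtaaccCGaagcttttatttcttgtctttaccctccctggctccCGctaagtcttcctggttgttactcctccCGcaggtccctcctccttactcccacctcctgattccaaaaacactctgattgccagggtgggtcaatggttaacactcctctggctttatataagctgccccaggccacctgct
These windows hold 13 CG dinucleotides for Slc2a1, 28 for Slc34a2 and 40 for Slc30a4, the most of any member with a matched promoter. Slc5a8 holds 17 and Slc13a2 holds 5. A promoter could be matched by gene identifier for 117 of the 152 members, with a median of 14 and a range of 0 to 40. Where a gene had several annotated starts, only the window before the most upstream one was counted. At least 10 were present in 70.1% of these, and in 38.2% of the 27025 promoters of the table. Unlike the members, the promoters of the table were not limited to measured genes or by level. Its shares, here and for the motif below, therefore describe an unlike set. The median was 20 for the 18 matched members that fell with AzaC, 15 for the 6 that rose and 13 for the 93 that did neither. For VPA the medians were 21.5 for 12 that fell, 15 for 8 that rose and 14 for 97 others. The motif TTCNNNGAA, the palindromic core bound by STAT5, the factor that carries the prolactin signal, stood in the window of 5 of the 117 members (4.3%) and in 7.1% of all promoters. Among the matched members called with either drug, Slc1a3 alone held it. Methylation was not measured in these samples, and a motif in these letters is a description of the sequence.

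Slc2a1, also called GLUT1, had the smallest p of all members with both drugs. It read 11.43 and 11.41 with PBS under the pregnant label, 10.31, 10.44 and 10.27 with AzaC, and 10.49, 10.54 and 10.50 with VPA. Neither drug group overlapped the PBS group, and the arrays within each group were close together. It fell by 1.08 ± 0.13 (SE) with AzaC (adjusted p = 0.0062) and by 0.91 ± 0.13 with VPA (adjusted p = 0.0108). Its other 2 probe sets differed from PBS by -1.32 and -1.29 with AzaC and by -0.99 and -0.85 with VPA. Under the virgin label the same gene read 11.13 and 11.26 with PBS, 11.41, 11.34 and 11.48 with AzaC, and 11.48 and 11.35 with VPA. There the drug arrays were all above the PBS arrays, by 0.22 with each drug, and neither difference passed. With the mean of its 3 probe sets, the AzaC difference under the virgin label was -0.04.

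Both phosphate carriers named above fell. Slc34a2, the apical sodium-phosphate cotransporter NaPi-IIb, read 13.78 and 13.63 with PBS. That is near the top of the scale, where differences can be compressed. With AzaC it read 11.83, 12.99 and 11.98, and with VPA 12.81, 12.52 and 12.09. All 6 drug arrays were below both PBS arrays, and the second AzaC array was the nearest to them. The gene fell by 1.44 ± 0.32 with AzaC (adjusted p = 0.0258) and by 1.23 ± 0.32 with VPA (adjusted p = 0.0466). Slc20a1, the sodium-phosphate cotransporter PiT-1, read 10.97 on both PBS arrays, 9.41, 9.45 and 9.04 with AzaC, and 9.67, 9.11 and 9.69 with VPA. It fell by 1.67 ± 0.23 (adjusted p = 0.01) and by 1.48 ± 0.23 (adjusted p = 0.0115), with no overlap. Slc20a2, the close relative PiT-2, did not pass with either drug, at 0.57 and 0.66 on the log2 scale, and with the mean of its probe sets the VPA difference was -0.55.

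Other ion carriers moved both ways. Slc24a3, which exchanges sodium for calcium and potassium, read 10 and 9.98 with PBS, and its 6 drug arrays lay between 7.79 and 8.69. It fell by 1.63 with AzaC and by 1.70 with VPA (adjusted p = 0.018 and 0.0192). Slc13a2, which brings in citrate and other dicarboxylates with sodium, rose from 8.11 and 8.21 with PBS to 10.39, 9.91 and 10.70 with AzaC and 10.48, 10.38 and 9.69 with VPA. The differences were 2.17 ± 0.34 (adjusted p = 0.0101) and 2.02 ± 0.34 (adjusted p = 0.013). Slc12a2, the sodium-potassium-chloride cotransporter NKCC1, rose with VPA by 1.5 ± 0.31 (adjusted p = 0.0246), from 10.34 and 10.67 to 12.04, 11.89 and 12.08. With AzaC it was higher by 1.11 ± 0.31, which did not pass (adjusted p = 0.0504), and AzaC and VPA did not differ past the threshold in any member. The 4 members of the Slc12 family all had differences above 0 with each drug, of 0.26 to 1.11 with AzaC and 0.19 to 1.5 with VPA. That holds for the chosen probe sets. A second probe set of Slc12a7, with a mean of 8.23, was at -0.03 with AzaC and -0.14 with VPA.

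**Figure D2:**
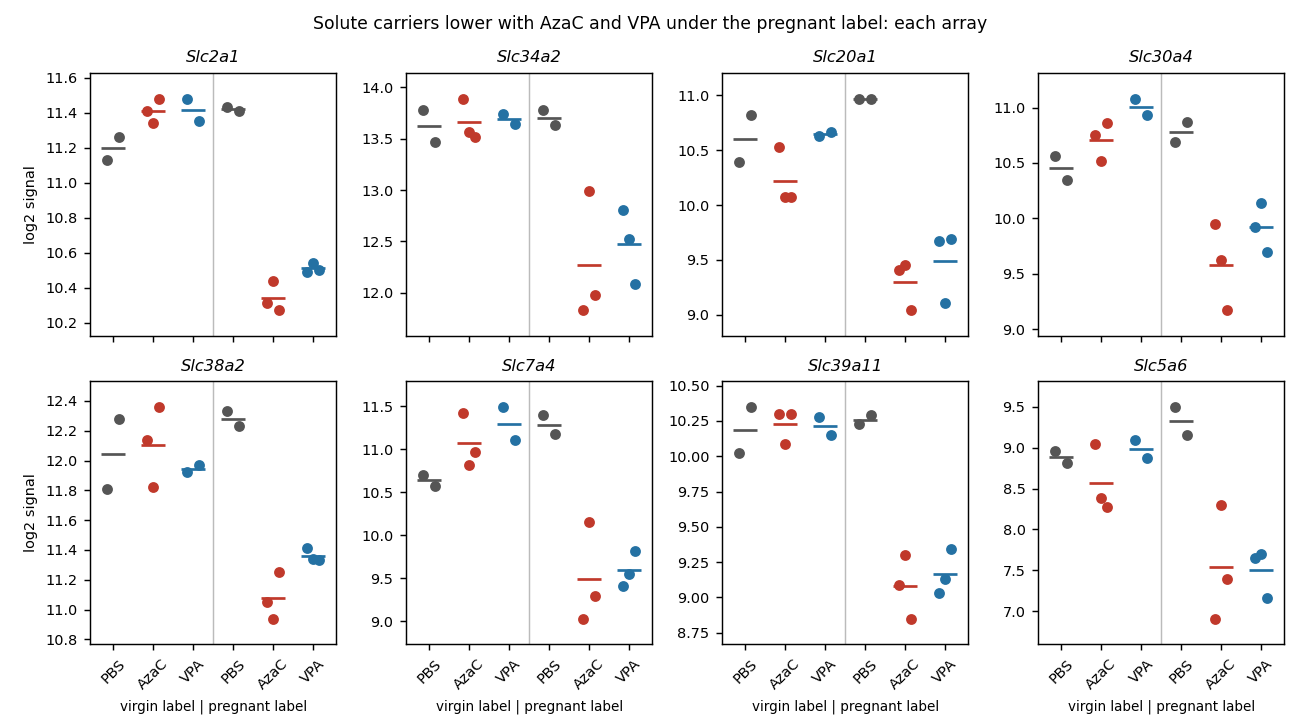
Log2 signal on each of the 15 arrays (points) for 8 members that fell with both drugs under the pregnant label, with the mean of each group as a bar and a separate axis range for each gene. In each panel the 6 drug arrays under the pregnant label lie below both PBS arrays of that label, as for Slc2a1, at 10.27 to 10.54 against 11.41 and 11.43.

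With AzaC, the metal carriers were the class with the most falls. Of 25 members in this class, 6 fell and 2 rose with AzaC, and 3 fell and 1 rose with VPA. These are plain counts, and the classes held 8 to 34 members. Of all members, 19.7% passed in either direction with AzaC and 15.8% with VPA. Over all genes, 3.81% fell and 3.76% rose with AzaC, and 2.34% fell and 3.64% rose with VPA. The class median was -0.22 and -0.17, beside 0 and -0.06 over all members. It was not the lowest: the 8 members for nucleosides and nucleotide sugars had medians of -0.33 with AzaC and -0.38 with VPA. With VPA, 3 members also fell in each of 2 other classes, inorganic ions and amino acids and peptides. In the Slc30 family, which moves zinc out of the cytosol, 6 of 7 members were lower with each drug, with a median of -0.42 with AzaC and -0.33 with VPA. Slc30a4, needed for zinc in mouse milk, read 10.69 and 10.87 with PBS, 9.95, 9.62 and 9.17 with AzaC, and 9.92, 10.14 and 9.70 with VPA. It fell by 1.2 ± 0.23 (adjusted p = 0.0159) and by 0.86 ± 0.23 (adjusted p = 0.0491). Slc30a2, which loads zinc into vesicles, read 9.85 and 9.84 with PBS and 8.04, 8.44 and 8 with AzaC. It fell by 1.69 ± 0.43 (adjusted p = 0.0374). With VPA the arrays were 7.92, 8.19 and 9.44, of which the third was near the PBS level, and the gene did not pass (adjusted p = 0.0894). Slc30a7, a zinc carrier of the Golgi, fell by 0.90 with AzaC (adjusted p = 0.0283) and was 0.63 below PBS with VPA without passing (adjusted p = 0.0974).

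In the Slc39 family, which moves zinc into the cytosol, 3 of 10 members fell with AzaC and 2 with VPA. Of all genes, 3.81% fell with AzaC and 2.34% with VPA. Slc39a6 read 10.88 and 10.50 with PBS, 8.85, 9.34 and 9.47 with AzaC, and 9.32, 9.63 and 9.29 with VPA. It fell by 1.47 ± 0.22 (adjusted p = 0.01) and by 1.28 ± 0.22 (adjusted p = 0.0134). Slc39a11 read 10.23 and 10.29 with PBS, and all 6 drug arrays lay between 8.85 and 9.34. It fell by 1.18 ± 0.18 (adjusted p = 0.01) and by 1.09 ± 0.18 (adjusted p = 0.0128). Slc39a7, which releases zinc from the endoplasmic reticulum, fell by 0.92 with AzaC (adjusted p = 0.0305). Its probe set is of a kind that the maker marks as shared by related transcripts. Slc39a8 was 1.11 below PBS with AzaC and narrowly missed the threshold (adjusted p = 0.0553).

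The 2 rises of this class were Slc40a1 and Slc41a2. Slc40a1, or ferroportin, the iron exporter, read 6.27 and 6.28 with PBS and 9.67, 9.02 and 9.69 with AzaC, a rise of 3.19 ± 0.82 (adjusted p = 0.0397) that missed the threshold with the mean of its probe sets (adjusted p = 0.0647) and with a floor at 5 (adjusted p = 0.0569). The VPA arrays read 9.24, 9.23 and 9.17. Their difference of 2.94 ± 0.82 did not pass (adjusted p = 0.058), although they varied little, because the model uses the spread of all 6 groups. That spread is wide for this gene under the virgin label, where the AzaC arrays read 5.59, 9.2 and 8.36. Slc41a2, a magnesium carrier, read 5.23 and 5.03 with PBS, 8.86, 7.61 and 8.05 with AzaC, and 8.60, 8.63 and 8.62 with VPA. It rose by 3.04 ± 0.73 (adjusted p = 0.0319) and by 3.49 ± 0.73 (adjusted p = 0.0253). The other magnesium carriers, Slc41a1 and Slc41a3, were at -0.77 and -0.77 with AzaC and at -0.77 and -0.56 with VPA, and the iron carrier Slc11a2 was at -0.32 and -0.17. None of these passed, and the other probe sets of Slc41a3, with means of 3.55 and 5.46, were at 0.36 and 0.78 with AzaC.

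The carriers of monocarboxylates and of sugars other than glucose moved both ways. Slc5a8, a sodium-coupled carrier of lactate and short-chain fatty acids, read 6.13 and 6.52 with PBS, 10.93, 10.27 and 9.28 with AzaC, and 10.13, 9.68 and 10.39 with VPA. The rises of 3.84 ± 0.73 (adjusted p = 0.0165) and 3.74 ± 0.73 (adjusted p = 0.021) were the largest of any member with each drug. Slc45a3, a carrier described for sugars, read 8.07 and 7.62 with PBS, 11.14, 10.36 and 10.32 with AzaC, and 11.56, 11.01 and 9.71 with VPA. It rose by 2.76 ± 0.73 (adjusted p = 0.0419) and by 2.92 ± 0.73 (adjusted p = 0.0409), and its second probe set was higher by 2.28 and 2.35. The chosen probe set is of the kind marked as shared by related transcripts, and the second is of a kind that can bind unrelated ones. Both rises missed the threshold with the mean of the 2 probe sets (adjusted p = 0.0544 and 0.0522) and with a floor at 5 (adjusted p = 0.0593 and 0.0559). Slc16a1, the proton-coupled lactate and pyruvate carrier MCT1, went the other way with AzaC, from 10.40 and 10.72 to 9.76, 9.85 and 9.24. It fell by 0.94 ± 0.20 (adjusted p = 0.0238). With VPA its arrays read 10.11, 10.33 and 10.21, and the difference of -0.34 did not pass (adjusted p = 0.333). Slc5a9, a carrier of mannose and other sugars, rose by 0.96 with AzaC (adjusted p = 0.0274).

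**Figure D3:**
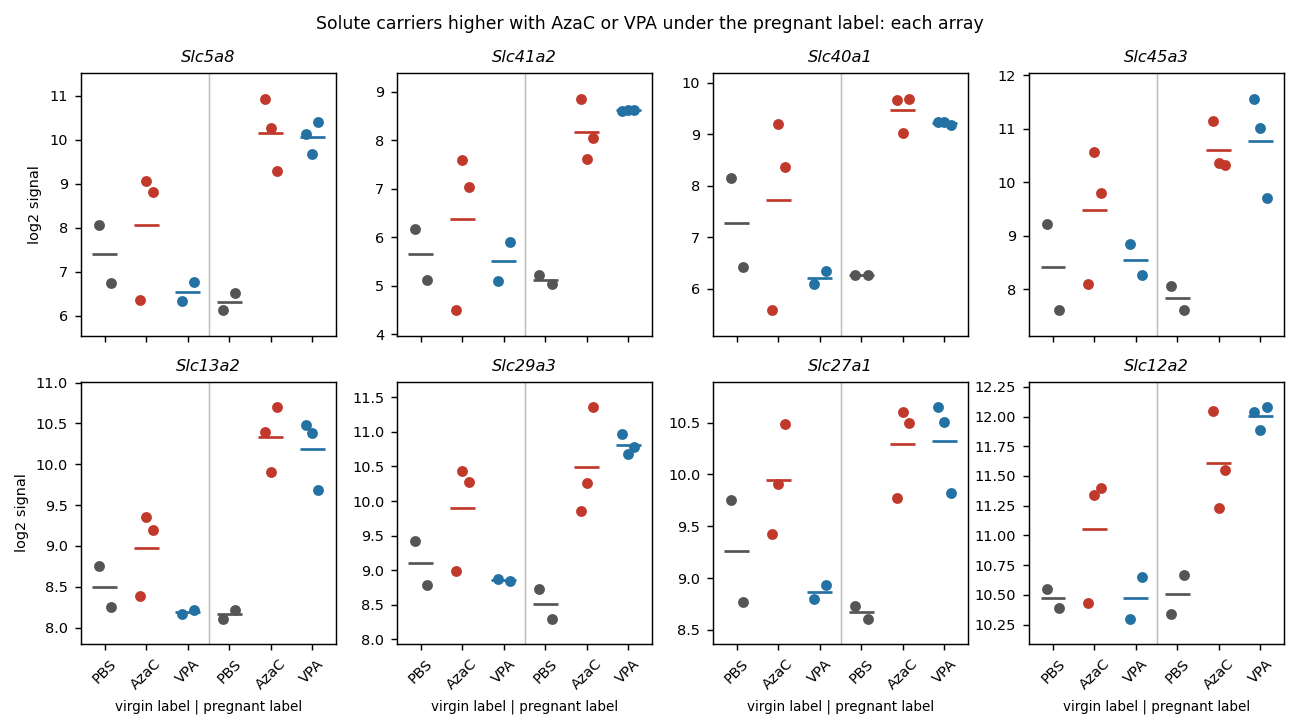
Log2 signal on each array (points) for 8 members that rose with AzaC, with VPA or with both under the pregnant label, with group means as bars and a separate axis range for each gene. Under the pregnant label the drug arrays lie above both PBS arrays, and under the virgin label the AzaC arrays of several genes are far apart, as for Slc40a1 at 5.59, 9.2 and 8.36.

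Of 26 amino acid and peptide carriers, 1 rose and 3 fell with each drug. In either direction, 19.7% of all members passed with AzaC and 15.8% with VPA, against 7.57% and 5.98% of all genes. Slc38a2, or SNAT2, which takes up neutral amino acids with sodium and is sensitive to their supply, read 12.33 and 12.23 with PBS, 11.05, 10.94 and 11.25 with AzaC, and 11.41, 11.34 and 11.33 with VPA. It fell by 1.2 ± 0.19 (adjusted p = 0.0115) and by 0.92 ± 0.19 (adjusted p = 0.025), with no overlap. All 4 members of its family had differences below 0, with medians of -0.69 and -0.71, but the other 3 did not pass. Slc7a4, placed by sequence among the cationic amino acid carriers, read 11.39 and 11.17 with PBS, 9.03, 10.15 and 9.29 with AzaC, and 9.41, 9.55 and 9.82 with VPA. It fell by 1.79 ± 0.31 and by 1.69 ± 0.31 (adjusted p = 0.012 and 0.0172). Slc1a3, a glutamate and aspartate carrier, fell from 8.05 and 8.45 to 6.88, 7.11 and 5.54 with AzaC (-1.74 ± 0.42, adjusted p = 0.0314) and to 6.61, 6.34 and 6.41 with VPA (-1.80 ± 0.42, adjusted p = 0.0338).

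The pair that forms the large neutral amino acid exchanger did not pass. Slc7a5, its transporting chain, was 0.37 below PBS with AzaC and 0.05 above with VPA (adjusted p = 0.393 and 0.933). Slc3a2, its heavy chain, was 0.63 and 0.86 above PBS (adjusted p = 0.176 and 0.0886). Slc43a3, grouped here by family number with amino acid carriers but described for purine nucleobases, rose by 1.73 ± 0.44 and 1.75 ± 0.44 (adjusted p = 0.0373 and 0.0409). Its arrays read 5.27 and 5.80 with PBS and 7 to 7.59 with the drugs.

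Of 30 mitochondrial carriers of the Slc25 family, the largest family measured, 3 fell with AzaC, and 1 rose and 1 fell with VPA. Among all genes with a mean of at least 6, 9.7% passed with AzaC and 7.72% with VPA. Most members of this family were close to PBS, with a median of 0.02 and -0.09. Slc25a5, the adenine nucleotide translocase ANT2, read 12.66 and 12.55 with PBS, 11.37, 11.75 and 11.33 with AzaC, and 11.83, 12.15 and 12.01 with VPA. It fell by 1.12 ± 0.17 with AzaC (adjusted p = 0.0101). With VPA it was 0.61 below PBS without passing (adjusted p = 0.0625). Its chosen probe set is of a kind that can bind unrelated transcripts, and the other 7 differed from PBS with AzaC by -1.54 to -1.16. Most of the other 7 are of that kind as well, and those that are not were at -1.54 and -1.27. Slc25a33, which brings pyrimidine nucleotides into mitochondria, fell by 1.56 ± 0.27 and by 1.26 ± 0.27 (adjusted p = 0.013 and 0.0267). Slc25a45 fell by 0.65 with AzaC (adjusted p = 0.0331). Slc25a20, which carries acylcarnitines for fatty acid oxidation, rose by 1.25 ± 0.31 with VPA (adjusted p = 0.0422) and was 0.78 above PBS with AzaC without passing (adjusted p = 0.147).

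Among the nucleoside carriers, the sodium-coupled Slc28a3 fell and the lysosomal Slc29a3 rose. Slc28a3 read 12.60 and 12.84 with PBS, and its 6 drug arrays lay between 11.56 and 11.87. It fell by 0.99 ± 0.21 with AzaC and by 1.04 ± 0.21 with VPA (adjusted p = 0.0211 and 0.0218). Slc29a3 read 8.73 and 8.30 with PBS, 9.86, 10.26 and 11.36 with AzaC, and 10.97, 10.68 and 10.78 with VPA. It rose by 1.98 ± 0.47 (adjusted p = 0.0305) and by 2.30 ± 0.47 (adjusted p = 0.0246).

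Carriers of vitamins, lipids and organic ions completed the calls. Slc5a6, the sodium-dependent carrier of biotin and pantothenate, read 9.50 and 9.16 with PBS, 6.91, 8.30 and 7.40 with AzaC, and 7.65, 7.70 and 7.16 with VPA. It fell by 1.79 ± 0.36 and by 1.83 ± 0.36 (adjusted p = 0.0194 and 0.0223). Slc33a1, which takes acetyl-CoA into the endoplasmic reticulum, fell by 1.53 ± 0.25 and by 1.47 ± 0.25 (adjusted p = 0.0115 and 0.0134), from 9.10 and 9.40 to between 7.29 and 8.17. Slc27a1, a fatty acid transport protein, rose by 1.62 ± 0.39 and 1.66 ± 0.39 (adjusted p = 0.0314 and 0.0353). Slc44a1, a choline carrier, rose by 1.04 ± 0.26 with VPA (adjusted p = 0.0411), and the AzaC difference of 0.88 did not pass (adjusted p = 0.0612). Slc14a2, a urea carrier, rose by 1.35 with AzaC (adjusted p = 0.0356). Its other probe set, with a mean of 5.19, was 0.64 below PBS, the only opposite direction among the 21 other probe sets of the members called with AzaC, and the mean of both did not pass (0.35, adjusted p = 0.548). With VPA, all 15 other probe sets of the called members shared the direction of the chosen one.

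**Figure D4:**
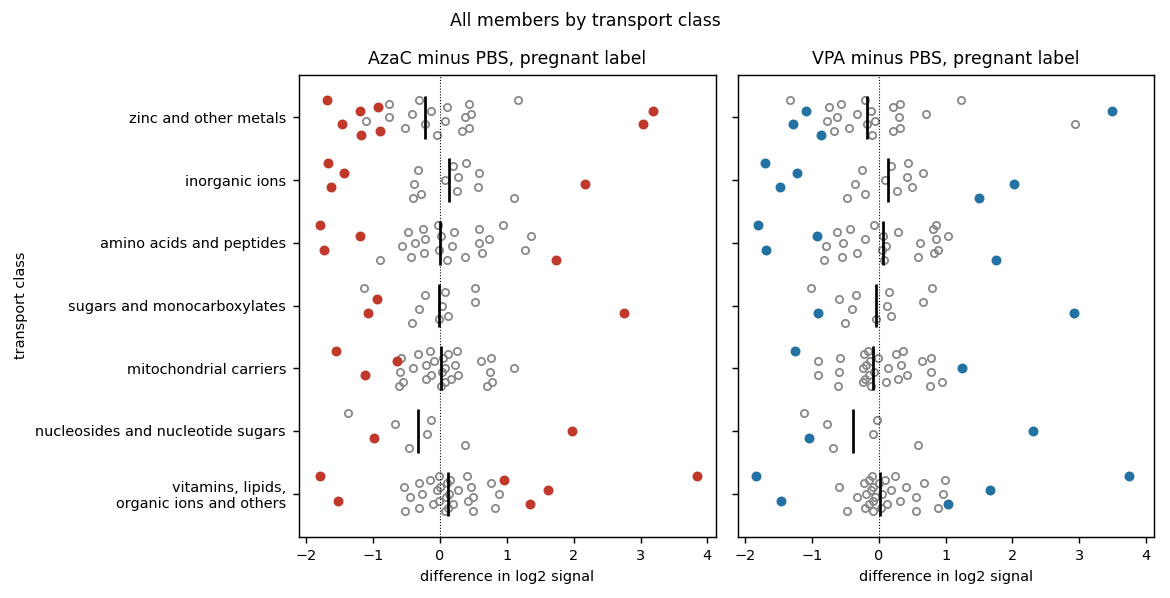
Difference from PBS in log2 signal under the pregnant label for all 152 members by transport class, with AzaC (left) and VPA (right). Filled points passed an adjusted p of 0.05, open points did not, and vertical bars mark class medians. The median for metals was -0.22 with AzaC and -0.17 with VPA, and the lowest, for nucleosides and nucleotide sugars, -0.33 and -0.38.

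The carriers for which a role in milk secretion is known were counted as a list, drawn up with earlier results of these data known. Of 31 genes listed, 29 were measured and 25 were members. With AzaC, 8 fell and 1 rose, and with VPA 6 fell and 2 rose, with medians over the 25 of 0.01 and -0.17. The 8 that fell with AzaC were Slc2a1, Slc34a2, Slc20a1, Slc30a2, Slc30a4, Slc38a2, Slc1a3 and Slc16a1, and Slc40a1 rose. The 2 that rose with VPA were Slc12a2 and Slc44a1. Over all genes, 3.81% fell and 3.76% rose with AzaC and 2.34% fell and 3.64% rose with VPA, and over all members 20 fell and 10 rose, and 14 fell and 10 rose. Since the list was drawn up with such results known, its counts are a description. Of the 86 solute carriers with a mean under 6, 3 rose and 2 fell with AzaC and 2 rose and 1 fell with VPA.

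Transport genes named outside the Slc numbering were also read from a list chosen with earlier results known, of which 42 of 52 were measured. With AzaC 9 fell and 3 rose, and with VPA 8 fell and 2 rose. Over all genes, 3.81% fell and 3.76% rose with AzaC, and 2.34% fell and 3.64% rose with VPA. Because results were known when this list was chosen, its counts are a description too. The calcium pump Atp2b2, which exports calcium at the apical membrane of milk-secreting cells, fell by 3.54 ± 0.74 with AzaC and by 3.95 ± 0.74 with VPA (adjusted p = 0.0221 and 0.019). Abcg2, an efflux pump that moves riboflavin and drugs into milk, fell by 1.72 ± 0.28 and by 1.37 ± 0.28 (adjusted p = 0.0115 and 0.0246). Tfrc, the transferrin receptor through which cells take up iron, fell by 1.93 ± 0.38 and by 1.66 ± 0.38 (adjusted p = 0.0177 and 0.0315). Aqp1, a water channel abundant in endothelium, rose by 1.71 ± 0.42 and 1.72 ± 0.42 (adjusted p = 0.0341 and 0.0387).

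Marker levels of cell types moved with the drugs under the pregnant label as well. The summed log2 signal of 7 luminal markers was 85.5 on both PBS arrays, 89.2 to 90 with AzaC and 89.2 to 90.7 with VPA. The sum of 6 endothelial markers was 41.7 to 45.9, 47.6 to 52.6 and 47.7 to 52.1, that of 6 macrophage markers 48.7 to 50.7, 52.5 to 54.3 and 53.1 to 56, and that of 6 fibroblast markers 59.2 to 60.4, 61.8 to 66.8 and 63 to 69.1. The 6 basal markers overlapped, at 57.8 to 58.6, 57.8 to 58.7 and 58.1 to 60.4. So did the 5 neutrophil markers, at 24.8 to 25.4, 25.1 to 26.4 and 23.9 to 26.6. The 5 adipocyte markers measured of 7 read 43 to 44.9 with PBS, 42.3 to 48.7 with AzaC and 46 to 47.6 with VPA. No marker was at 0 on any array. In these lists 1 endothelial marker rose with each drug and 1 fibroblast marker rose with VPA, and none fell. In bulk samples, fewer cells of a type and less RNA per cell cannot be told apart, and the part of these markers in the carrier differences was not tested.

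Under the virgin label no member passed with either drug. With AzaC, 7 of the 152 members had an unadjusted p under 0.05, 5 higher and 2 lower, beside 849 of 12393 genes. The share of all genes that passed was 0%. The smallest p belonged to Slc26a2, a sulfate carrier, at 0.67 ± 0.24 above PBS (adjusted p = 0.714). With VPA, 7 members again had an unadjusted p under 0.05, 5 higher and 2 lower, beside 851 of 12393 genes. Of all genes, 0.00807% passed. There the smallest p belonged to Slc39a7, at 0.64 ± 0.24 (adjusted p = 0.648). The counts stayed at 0 with each alternative and each array left out. Arrays of 1 group were far apart here for 3 members that were high with the drugs under the pregnant label. With AzaC, Slc5a8 read 6.36, 9.05 and 8.81, Slc41a2 read 4.5, 7.60 and 7.04, and Slc40a1 read 5.59, 9.2 and 8.36. The first AzaC array was the low one in each. The luminal marker sum of the AzaC group ran from 84.9 to 90, and its part in these readings was not tested. The 2 PBS arrays were apart as well, at 8.06 and 6.75 for Slc5a8 and 8.15 and 6.42 for Slc40a1.

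Whether a drug difference itself changed with the stage label was tested as the pregnant difference minus the virgin one. For AzaC no member passed, and 0% of all genes did. An unadjusted p under 0.05 was found for 33 of the 152 members, of which 26 were negative. Of all 12393 genes, 1587 had such a p, of which 1012 were negative. Slc2a1 had the smallest p, at -1.30 ± 0.18 (adjusted p = 0.124). For VPA, 44 of the 152 members and 2340 of the 12393 genes had an unadjusted p under 0.05. Slc2a1 was the only member that passed, at -1.13 ± 0.19 (adjusted p = 0.0467), beside 0.315% of all genes in either direction and 0.194% downward. That call was close to the threshold and was lost on leaving out 12 of the 15 arrays, with adjusted p from 0.0552 to 0.19 and differences of -1.2 to -1.06 over the 15. It was kept without pregnant AzaC replicate 2, virgin AzaC replicate 1 or virgin PBS replicate 2, and for 14 members the dependence passed without virgin AzaC replicate 1. For the other members, passing under one label and not under the other does not show that their differences differ.

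**Figure D5:**
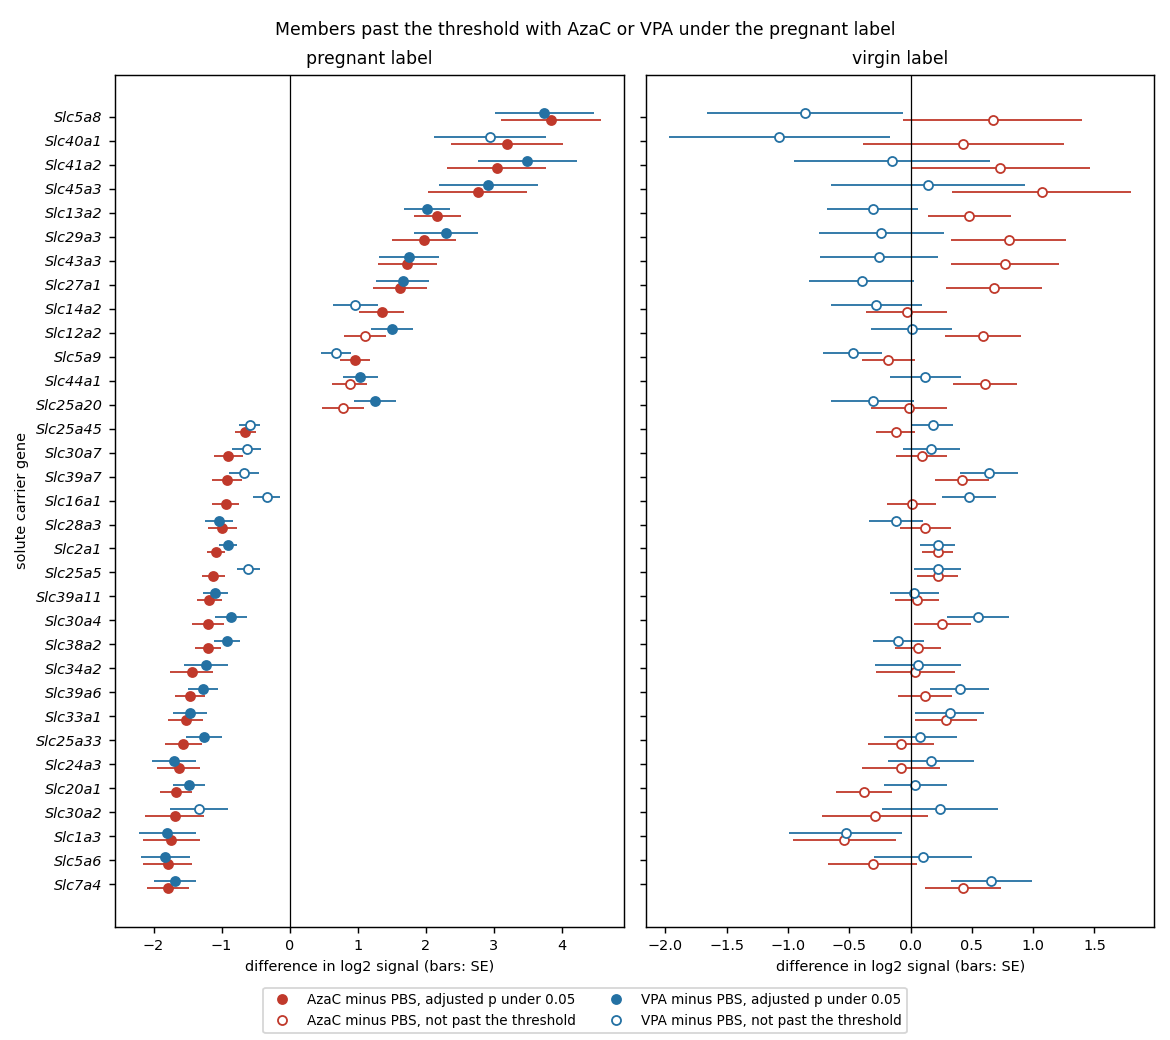
Difference from PBS in log2 signal, with SE bars, for the 33 members past an adjusted p of 0.05 with AzaC or VPA under the pregnant label (left) and for the same genes under the virgin label (right, on a narrower axis). Filled points passed and open points did not, and no point on the right is filled. Genes are ordered by the AzaC difference under the pregnant label, from Slc7a4 at -1.79 to Slc5a8 at 3.84.

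Between the labels, the PBS arrays differed past the threshold in no member and in 0.00807% of all genes. An unadjusted p under 0.05 was found for 4 of the 152 members and 521 of 12393 genes. Slc14a2 had the smallest p, at -1.2 ± 0.37, pregnant minus virgin (adjusted p = 0.932). With AzaC, 1 member was higher under the pregnant label and 11 were lower, 7.89% of the members against 1.23% of all genes, of which 0.121% were higher and 1.11% lower. With VPA, 9 were higher and 14 lower, 15.1% against 6.66% of all genes, of which 3.7% were higher and 2.96% lower. Among genes with a mean of at least 6, the shares were 1.59% with AzaC and 8.21% with VPA. Of the 141 members with every group mean at 6 or more, 7 were higher and 14 lower with VPA. The other 2 that were higher, Slc41a2 and Slc43a3, had a group mean under 6, so the values tested also helped to choose them. The comparisons of labels with AzaC and with VPA use the drug arrays of the pregnant label again, so they are not independent of the ones above. They do not use the pregnant PBS arrays as a baseline. Slc2a1 was lower under the pregnant label by 1.07 ± 0.12 with AzaC (-1.07, adjusted p = 0.0125) and by 0.90 ± 0.13 with VPA (-0.90, adjusted p = 0.0135). Slc34a2 differed by -1.39 ± 0.29 and -1.22 ± 0.32 (adjusted p = 0.0453 and 0.0463), and Slc30a4 by -1.13 ± 0.20 and -1.08 ± 0.23 (adjusted p = 0.0325 and 0.0246). Slc5a8 was higher with VPA by 3.52 ± 0.73 (adjusted p = 0.0246), whereas with AzaC its 2.09 ± 0.66 did not pass (adjusted p = 0.14).

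Those counts rest on single arrays and, with AzaC, on the scaling, since 1 member passed after quantile normalization. With AzaC no member passed without virgin AzaC replicate 1. The count was 1 without virgin AzaC replicate 2 or 3, pregnant AzaC replicate 1 or 3, or either virgin VPA array, 5 without either pregnant PBS array, 4 without pregnant VPA replicate 2, 8 without pregnant VPA replicate 1, and 19 without pregnant AzaC replicate 2. With VPA the count was 0 and 2 without virgin VPA replicate 1 and 2, and 7, 8 and 7 without pregnant VPA replicates 1, 2 and 3.

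The drugs were also compared with each other directly. Under the pregnant label no member differed past the threshold, and 0% of all genes did. At an unadjusted p under 0.05 there were 6 of the 152 members and 468 of 12393 genes. The members were led by Slc25a5, lower with AzaC than with VPA by 0.51 ± 0.16 (-0.51, adjusted p = 1), and Slc16a1, lower by 0.60 ± 0.18 (-0.60, adjusted p = 1). Under the virgin label 9 members and 813 of 12393 genes had an unadjusted p under 0.05. No member passed, and 0% of all genes did. Slc25a25 led these members at 0.73 ± 0.25 (adjusted p = 0.71). With so few arrays, such a result does not show that the drugs act alike on these carriers.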

How the data were processed

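Per the labels, mRNA of mammary epithelial cells was labelled as biotinylated cRNA and hybridised to Affymetrix arrays. The deposited table gives 22690 probe sets on 15 arrays as values taken to be log2 signals processed by the authors. Their summary, background and normalization methods are not given in the sources used here. Array medians were 7.22 to 7.47, and the values were used as deposited.

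Probe sets were named with the platform annotation. Of these, 20380 had 1 symbol, 691 had several, 1555 had none and 64 were controls. Each of 12393 genes was read from its brightest probe set by the mean of the 15 arrays. All 238 solute carrier symbols matched RefSeq, which also gave the promoters. A mean per group was fitted to all 15 arrays with limma 3.58.1 in R 4.3.3 (lmFit, eBayes, 9 residual and 2.31 prior degrees of freedom), with 11 two-sided comparisons adjusted by Benjamini-Hochberg over all genes and a threshold of 0.05. Transport classes follow family numbers.

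The genes to name were set by rule: a milk-transport list, up to 10 largest rises and 10 largest falls past the threshold in each comparison whose arrays do not overlap between the groups (the 3 smallest p-values where fewer than 3 passed), the 2 genes on each side of the limit, the smallest p of each class in each drug comparison, and members with a discordant probe set. Not every gene so chosen is described. Members and lists were chosen with earlier results of these data known. Outside this rule, Slc25a45, Slc30a7, Slc13a1 and the transport genes with other names were chosen after their values were seen.

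Alternatives were quantile normalization, genes with a mean of at least 6 alone, the mean of all probe sets, eBayes with trend and robust settings, a fit to only the 2 groups compared (4 for a stage dependence), a replicate block, the Gapdh difference as a covariate, a floor at 5, and each array left out. Same-numbered arrays deviated together in 14 of 33 pairs at a correlation over 0.1 (range -0.393 to 0.613). Arrays with different numbers were not compared in this way, so this cannot decide whether numbers mark pairs. The main fit did not use the numbers as pairs. On simulated data for AzaC under the pregnant label with 12393 genes, 45 of 100 genes changed by 1 and 94 of 100 changed by 2 were recovered, and 5 unchanged genes passed. Figures were drawn with matplotlib 3.10.9.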

Additional observations from a re-analysis of the deposited data

Results flagged for a closer look

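The difference between VPA and PBS depended on the stage label, by the test of that dependence, for 2 solute carrier genes. Slc2a1, the glucose carrier, gave a pregnant minus virgin difference of -1.13 ± 0.19 (limma, adjusted p = 0.0467), with VPA below PBS on 3 of 3 arrays under the pregnant label and above it on 2 of 2 under the virgin label. Slc13a1, a sulfate carrier with a mean under 6 and therefore no member, gave -2.63 ± 0.31 (adjusted p = 0.0279). It read 6.82 and 6.97 with PBS and 4.90, 5.16 and 4.89 with VPA under the pregnant label, and 5.69 and 5.70 with PBS and 6.57 and 6.25 with VPA under the virgin label. That call was lost in 6 of 22 settings, with adjusted p up to 0.112: with a replicate block, and without either pregnant PBS array, pregnant VPA replicate 1 or 2, or virgin VPA replicate 1. The call for Slc2a1 was lost on leaving out 12 of the 15 arrays, and also with quantile normalization (adjusted p = 0.0682), the mean of all probe sets (0.138), only the arrays compared (0.0531) and a replicate block (0.0832), and was kept in 7 of 23 settings.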

How the results depend on the processing

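No member called with AzaC or VPA under the pregnant label, or between the labels with AzaC or VPA, changed direction under any of the 8 alternatives or with any array left out. Counts of members past the threshold moved more, and the cause was not tested unless stated. Fitting only the arrays compared, which leaves fewer residual degrees of freedom, gave 0 of 30 calls for AzaC and 13 instead of 24 for VPA under the pregnant label. Between the labels it gave 0 instead of 12 with AzaC and 14 instead of 23 with VPA, and 4 instead of 1 for the dependence of VPA on the label. A replicate block gave 17 for AzaC (2 rose, 15 fell) and 9 for VPA under the pregnant label, 6 and 7 between the labels, and 0 for the dependence of VPA. Same-numbered arrays correlated over 0.1 in 14 of 33 pairs. Arrays with different numbers were not compared in this way, so these values cannot decide whether same-numbered arrays share a pairing or a batch. Quantile normalization gave 1 between the labels with AzaC and 0 for the dependence of VPA. Testing only genes with a mean of at least 6, which adjusts over fewer genes, gave 20 and 36 between the labels with AzaC and VPA and 11 for the dependence of VPA. The Gapdh covariate gave 21, 38 and 2 for the same 3 results. For the dependence of VPA, the mean of all probe sets gave 0, eBayes with trend and robust settings 10 and a floor at 5 gave 4, and that floor gave 3 instead of 0 for the dependence of AzaC. With each array left out, the counts ran from 0 to 34 for AzaC and 0 to 32 for VPA under the pregnant label, 0 to 19 and 0 to 28 between the labels with AzaC and VPA, and 0 to 3 and 0 to 14 for the dependence of AzaC and VPA. The 5 other comparisons stayed at 0 throughout. Calls near the threshold that single alternatives ended were, with AzaC, Slc25a45 and Slc28a3 (quantile normalization, adjusted p = 0.0595 and 0.0534) and Slc29a3 (mean of probe sets, 0.0506), and with VPA, Slc34a2 (floor at 5, 0.0532) and Slc44a1 (mean of probe sets, 0.063). Not every gene named here was followed through these settings. Slc41a3 was not, and its probe sets differed in direction with AzaC under the pregnant label. Among those followed, some differences that had not passed changed sign. With VPA under the pregnant label they were Slc7a5 (-0.07 after quantile normalization, -0.21 to 0.30 with an array left out) and Slc20a2 (-0.55 with the mean of probe sets). With AzaC under the virgin label they were Slc2a1 (-0.04 with the mean of probe sets) and Slc40a1 (-0.43 to 1.49 with an array left out). The 2 pregnant PBS arrays limit what can be called, and values near 0 and near 14.48 lie at the ends of the scale.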
